A study of Mus musculus with 18 samples.

Results

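Compound A, an inhibitor of the estrogen-related receptor alpha (ERRα) that is known here by its code name alone, was tested in CD4+ T cells during activation. The comparison sets 3 arrays of wild-type cells stimulated in the presence of compound A against 3 arrays of wild-type cells stimulated without an inhibitor, which make up 6 of the 18 arrays of the series. Members were chosen by annotation and signal: probe sets that the platform annotation assigns to a single gene and that reached a log2 signal of 4 on 3 or more of the 18 arrays. They number 10691 of 22690 probe sets and stand for 6873 genes, each counted through its member probe set with the highest mean signal.

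The cells were CD4+ T lymphocytes of mice aged 6 to 8 weeks, enriched by negative selection. Per the treatment protocol, the compound A group was wild type, received compound A at 20 µM and was stimulated through CD3 and CD28 with antibodies at 10 µg for 12 h. The XCT790 group was also wild type and stimulated, and received XCT790, an inverse agonist of ERRα, at the same dose of 20 µM. Stimulated knockout cells came from ERRα-/- mice and stimulated wild-type cells from mice with the intact gene, both with no inhibitor. Resting knockout and resting wild-type cells were taken ex vivo without culture. Each of the 6 groups holds 3 arrays of what the labels call independent biological replicates. P-values weigh each difference against the spread between arrays of the same group, pooled over the 6 groups. The labels name no solvent control, no mouse strain and no way in which the ERRα allele was disrupted. The labels conflict on 1 point: a field on stimulation calls the arrays with either inhibitor unstimulated, but the written protocol and the design text describe inhibitor treatment during stimulation, which is the reading used here. As a description, Il2, the T cell growth factor that stimulation induces, read 9.80, 10.59 and 10.58 on the compound A arrays and 3.96, 4.74 and 4.68 on the resting wild-type arrays.

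ERRα is an orphan nuclear receptor that binds a response element containing the sequence AAGGTCA and, with coactivators of the PGC-1 family, activates nuclear genes of the citric acid cycle, fatty acid oxidation, the respiratory chain and mitochondrial translation. Naive CD4+ T cells rest in a low-biosynthesis state held by factors of quiescence. Engagement of the T cell receptor with CD28 makes them leave that state, build ribosomes and mitochondria, take up glucose, copy their DNA and secrete cytokines and chemokines.

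Values are log2 GCRMA signals, differences are compound A minus stimulated wild type on the log2 scale with their standard error, and a gene passed where the adjusted p of limma, a linear model with a moderated variance, was under 0.05. All arrays hold the same sorted set of values, so each difference is relative to the rest of the array. A fold is given as "at least" where the lower group had no array at log2 4, the level used as the floor, or above; in every fold, array values under log2 4 were set to it. Of the 10 CD4+ T cell markers on the array, 10 were at or above log2 4 on all arrays of both groups, with means per array of 12.01 to 12.07 with compound A and 11.80 to 11.92 without. Of 17 macrophage markers 15 lay under log2 4 on all 3 arrays of each group, of 12 neutrophil markers 11, of 8 erythroid markers 8 and of 6 platelet markers 5. B cell markers had 5 of 12 at or above log2 4 in both groups, with means per array of 4.92 to 5.13 with compound A and 4.76 to 4.98 without. Of the chains that define CD8+ T cells, Cd8a lay under log2 4, whereas Cd8b1 averaged 7.20 with compound A and 7.09 without. In bulk samples, fewer cells of a type and less RNA per cell cannot be told apart.

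A control RNA separated the groups compared. Bacterial dap RNA is spiked in before labelling, and its 5′ probe set read 7.77, 7.94 and 8.10 on the compound A arrays, against 5.68, 4.49 and 5.28 on the stimulated wild-type arrays. It read 8.17 to 8.51 on the XCT790 arrays and 7.45 to 8.30 on the knockout arrays, against 3.99 to 6.38 on the resting wild-type arrays. The 3′ probe set of the same RNA averaged 10.9 ± 0.105 with compound A and 10.8 ± 0.162 without (SD, n = 3 each). Treatment and this split cannot be told apart in the comparison with stimulated wild-type cells. Values against stimulated knockout cells, which share the side of the compound A arrays but differ in genotype too, are therefore given beside the results. Stimulated knockout and stimulated wild-type cells, which lie across the same split, differed in 141 genes that were higher (2.05%) and 62 that were lower (0.902%) in knockout cells.

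Genes of secreted effectors, DNA replication and ribosome production were among those that fell with compound A, and genes of T cell quiescence among those that rose. Of 6873 genes, 990 (14.4%) passed as higher with compound A and 1281 (18.6%) as lower. Differences were moderate: 97 genes were at least 2-fold higher and 161 at least 2-fold lower, and the median change of the genes that passed was 1.42-fold. The arrays of the 2 groups did not overlap for 2226 of the 2271 genes that passed, and for 3942 of all 6873 genes. Against stimulated knockout cells, 935 genes (13.6%) were higher and 791 (11.5%) lower with compound A. Leaving out 1 array at a time gave 1591 to 2125 genes, lowest without compound A array 3 and highest without compound A array 1.

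**Figure D1:**
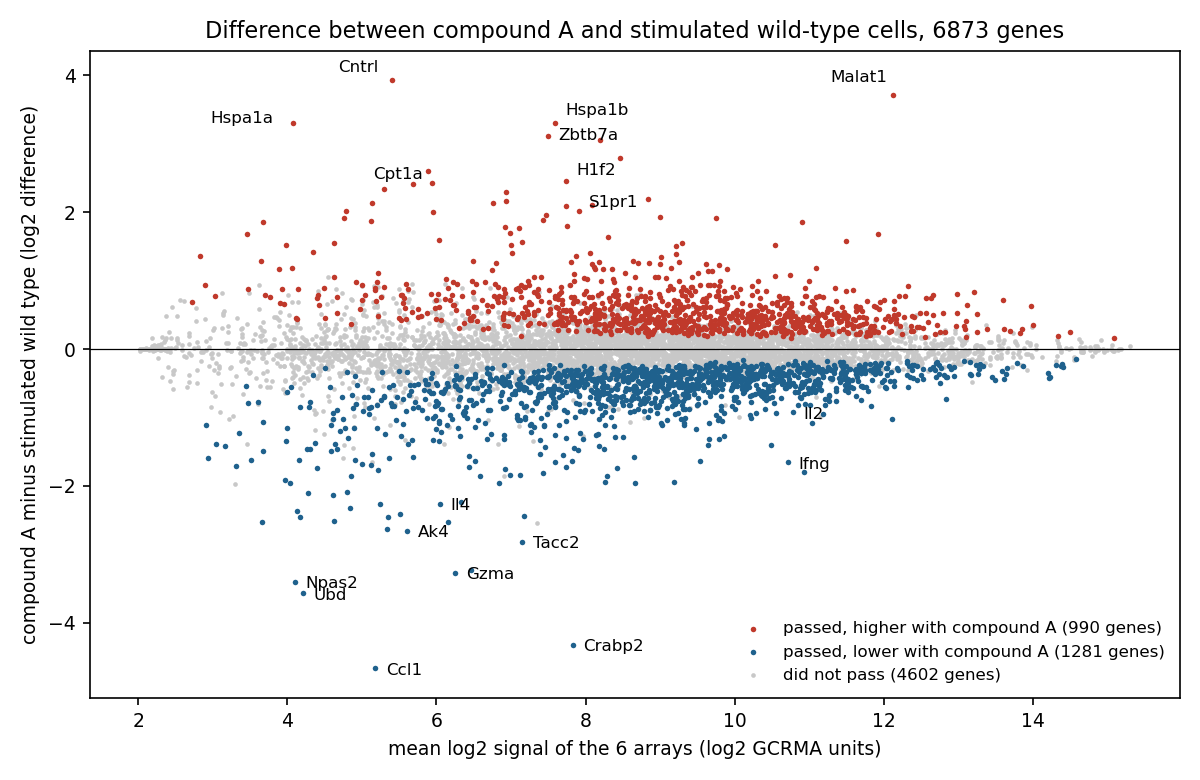
Difference between compound A and stimulated wild-type cells (log2, vertical axis) against the mean log2 signal of the 6 arrays (horizontal axis) for 6873 genes. Each point is a gene; red points passed as higher (990), blue points as lower (1281) and grey points did not pass, and most coloured points lie within 1 log2 unit of 0 while Ccl1, Crabp2, Malat1 and Cntrl lie near or beyond 4 log2 units.

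The genes that moved with compound A were set beside the response to stimulation in knockout cells, which uses none of the 6 arrays. In knockout cells 2584 genes rose with stimulation (37.6% of those tested) and 2444 fell (35.6%). The resting preparations held more signal of other cell types. Of 17 macrophage, 12 neutrophil and 8 erythroid markers, 12, 8 and 6 were at or above log2 4 on all resting knockout arrays. These counts were 2, 1 and 0 in stimulated knockout and 12, 3 and 1 in resting wild-type cells. The part of other cell types in differences from resting cells was not tested. Of the 1281 genes lower with compound A, 946 (73.8%) had risen with stimulation in knockout cells and 82 (6.40%) had fallen. These are 36.6% of the knockout rises and 3.36% of the knockout falls. Of the 990 genes higher with compound A, 680 (68.7%) had fallen with stimulation and 126 (12.7%) had risen. These are 27.8% of the knockout falls and 4.88% of the knockout rises. The median difference with compound A was -0.22 over the genes that rose in knockout cells, 0.15 over those that fell and -0.02 over the 1845 that did not pass, against -0.03 over all genes. The same genes were also set beside the resting genotypes, a contrast on which the dap split falls in the same way. Resting knockout cells had 480 genes higher than resting wild-type cells (6.98%) and 869 lower (12.6%). Of the 990 genes higher with compound A, 106 (10.7%) were among those 480, of which they are 22.1%. In the opposite direction, 160 of the 990 (16.2%) were among the 869 lower genes, of which they are 18.4%. Of the 1281 genes lower with compound A, 139 (10.9%) were among those 869, of which they are 16.0%, and 91 (7.10%) were among the 480 higher genes, of which they are 19.0%.

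Esrra, which encodes ERRα, was not among the genes that passed. Its probe set read 5.10, 5.10 and 5.12 on the compound A arrays and 5.28, 5.47 and 5.36 on the stimulated wild-type arrays, against means of 5.10 with XCT790 and 4.45 in stimulated knockout cells. The arrays with compound A all lay below those without it, by little (difference -0.26 ± 0.11, 95% interval -0.51 to -0.02; limma adjusted p = 0.0914). The call depended on the fit: with the compared groups alone the adjusted p was 0.016, and with array weights 0.0185. The labels do not say whether this probe set lies in the disrupted part of the gene, so the knockout level does not check the genotype. Against stimulated knockout cells Esrra was higher with compound A (difference 0.66 ± 0.11; adjusted p = 0.00129). Of 16 genes of the ERR family, its coregulators and the factors of mitochondrial biogenesis, 2 rose and 1 fell, with a median difference of 0.07. These shares, 12.5% and 6.25%, stood against 14.4% and 18.6% of all genes. In this list 0 rose without compound A array 2 or stimulated wild-type array 2 or 3 and with no filter, and 1 rose without any other single array. Polrmt, the mitochondrial RNA polymerase, fell by 0.34 (adjusted p = 0.00522), and its mean of 9.18 with compound A lay beside 9.15 in knockout and 9.53 in wild-type stimulated cells. Against knockout cells its difference was 0.04 ± 0.08 and did not pass (adjusted p = 0.791).

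Secreted effector molecules were among the steepest declines. Of 19 cytokine genes 7 fell and 2 rose (36.8% and 10.5%, against 18.6% and 14.4% of all genes), with a median difference of -0.74. Of 10 chemokine genes 5 fell (50%) and none rose, with a median of -1.35. Against stimulated knockout cells 7 cytokine genes and 9 chemokine genes were lower. Stimulated knockout cells themselves stood above stimulated wild-type cells, by a median of 0.15 for the cytokines and 0.89 for the chemokines. The cytokine count was 4 without stimulated wild-type array 3, and the chemokine count 3 without compound A array 2 or 3 or stimulated wild-type array 1.

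Ccl1, an attractant for cells bearing CCR8, read 2.71, 3.09 and 2.73 on the compound A arrays, against 7.68, 7.33 and 7.53 on the stimulated wild-type arrays. With compound A it lay under log2 4 on all 3 arrays, as it did in resting wild-type cells (mean 2.15), and the fall was at least 11.4-fold (difference -4.67 ± 0.34; adjusted p = 4.45e-07). Ccl3, an inflammatory chemokine, read 8.35, 7.25 and 7.48 with compound A, against 10.21, 9.06 and 9.66 without (difference -1.96 ± 0.51; adjusted p = 0.00939). Here both groups were well above the floor and did not overlap. Xcl1, the lymphotactin that attracts XCR1-bearing dendritic cells, averaged 7.36 ± 0.26 with compound A and 9.22 ± 0.18 without (SD, n = 3 each), a fall of 3.62-fold. Cxcl9, a chemokine induced by interferon gamma, was 3.11-fold lower at an adjusted p of 0.0274; this call was lost without compound A array 2 or 3, without stimulated wild-type array 1, with no filter and with the compared groups alone (adjusted p = 0.0539 to 0.136).

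Il4, the cytokine that directs type 2 helper cells, read 5.04, 4.92 and 4.79 with compound A, against 7.29, 6.58 and 7.66 in stimulated wild-type cells (difference -2.26 ± 0.39; adjusted p = 0.000546). The compound A arrays lay within 0.25 of each other and all below the stimulated wild-type arrays, a 4.78-fold fall, with stimulated knockout cells at 6.92. Ifng, which encodes interferon gamma of type 1 helper cells, read 10.00, 9.29 and 10.39 with compound A, against 11.81, 11.14 and 11.70 without. Every compound A array was lower, by 3.15-fold on average (difference -1.66 ± 0.34; adjusted p = 0.00181), yet the group stayed above resting wild-type cells at 7.72. Il2 moved by less: 9.80, 10.59 and 10.58 with compound A, against 11.13, 11.35 and 11.27 without (difference -0.93 ± 0.28; adjusted p = 0.0189). The groups did not overlap, but the call was lost without compound A array 1 (0.0866) or stimulated wild-type array 2 or 3 (0.0585 and 0.0515), and against stimulated knockout cells it did not pass (0.223). Lif, a cytokine of the interleukin 6 family, averaged 6.20 ± 0.24 with compound A and 8.04 ± 0.21 in stimulated wild-type cells, a 3.58-fold fall (adjusted p = 0.00531). Il3, a growth factor for myeloid precursors, read 2.14 on all 3 compound A arrays and 3.57, 3.39 and 4.24 without it, so that both groups lay near or under the floor.

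Granzymes, the proteases of cytotoxic granules, fell with the cytokines. Gzma read 4.09, 4.82 and 4.93 with compound A, against 8.00, 7.78 and 7.88 in stimulated wild-type cells (9.67-fold; difference -3.27 ± 0.30; adjusted p = 3.42e-06). Gzmb read 10.57, 9.65 and 9.88 with compound A, against 12.32, 11.49 and 11.69 without it (3.49-fold; difference -1.80 ± 0.30; adjusted p = 0.000459). The groups were apart for both genes. Resting wild-type cells stood at 8.35 for Gzma and 7.87 for Gzmb, so that both compared groups were below the resting level for Gzma and above it for Gzmb. These genes are also markers of NK cells. The 10 NK markers, Gzma and Gzmb among them, had means per array of 4.63 to 4.78 with compound A and 5.29 to 5.52 without. These means therefore include the falls of the granzymes themselves. Of the 8 NK markers tested, 3 passed as lower (37.5%, against 18.6% of all genes) and 0 as higher. Nkg7, which is no granzyme, was among the 3. Its difference of -0.67 did not pass with no filter (limma adjusted p = 0.0697), with arrays 2 and 3 alone or in most fits without 1 array. Ncr1, Klra1, Klra8, Klrk1 and Prf1 lay under log2 4 on all arrays of both groups. In resting wild-type cells 7 of the 10 markers were at or above log2 4 on all arrays, against 5 in each compared group. Whether fewer NK cells took part in the granzyme result was not tested.

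**Figure D2:**
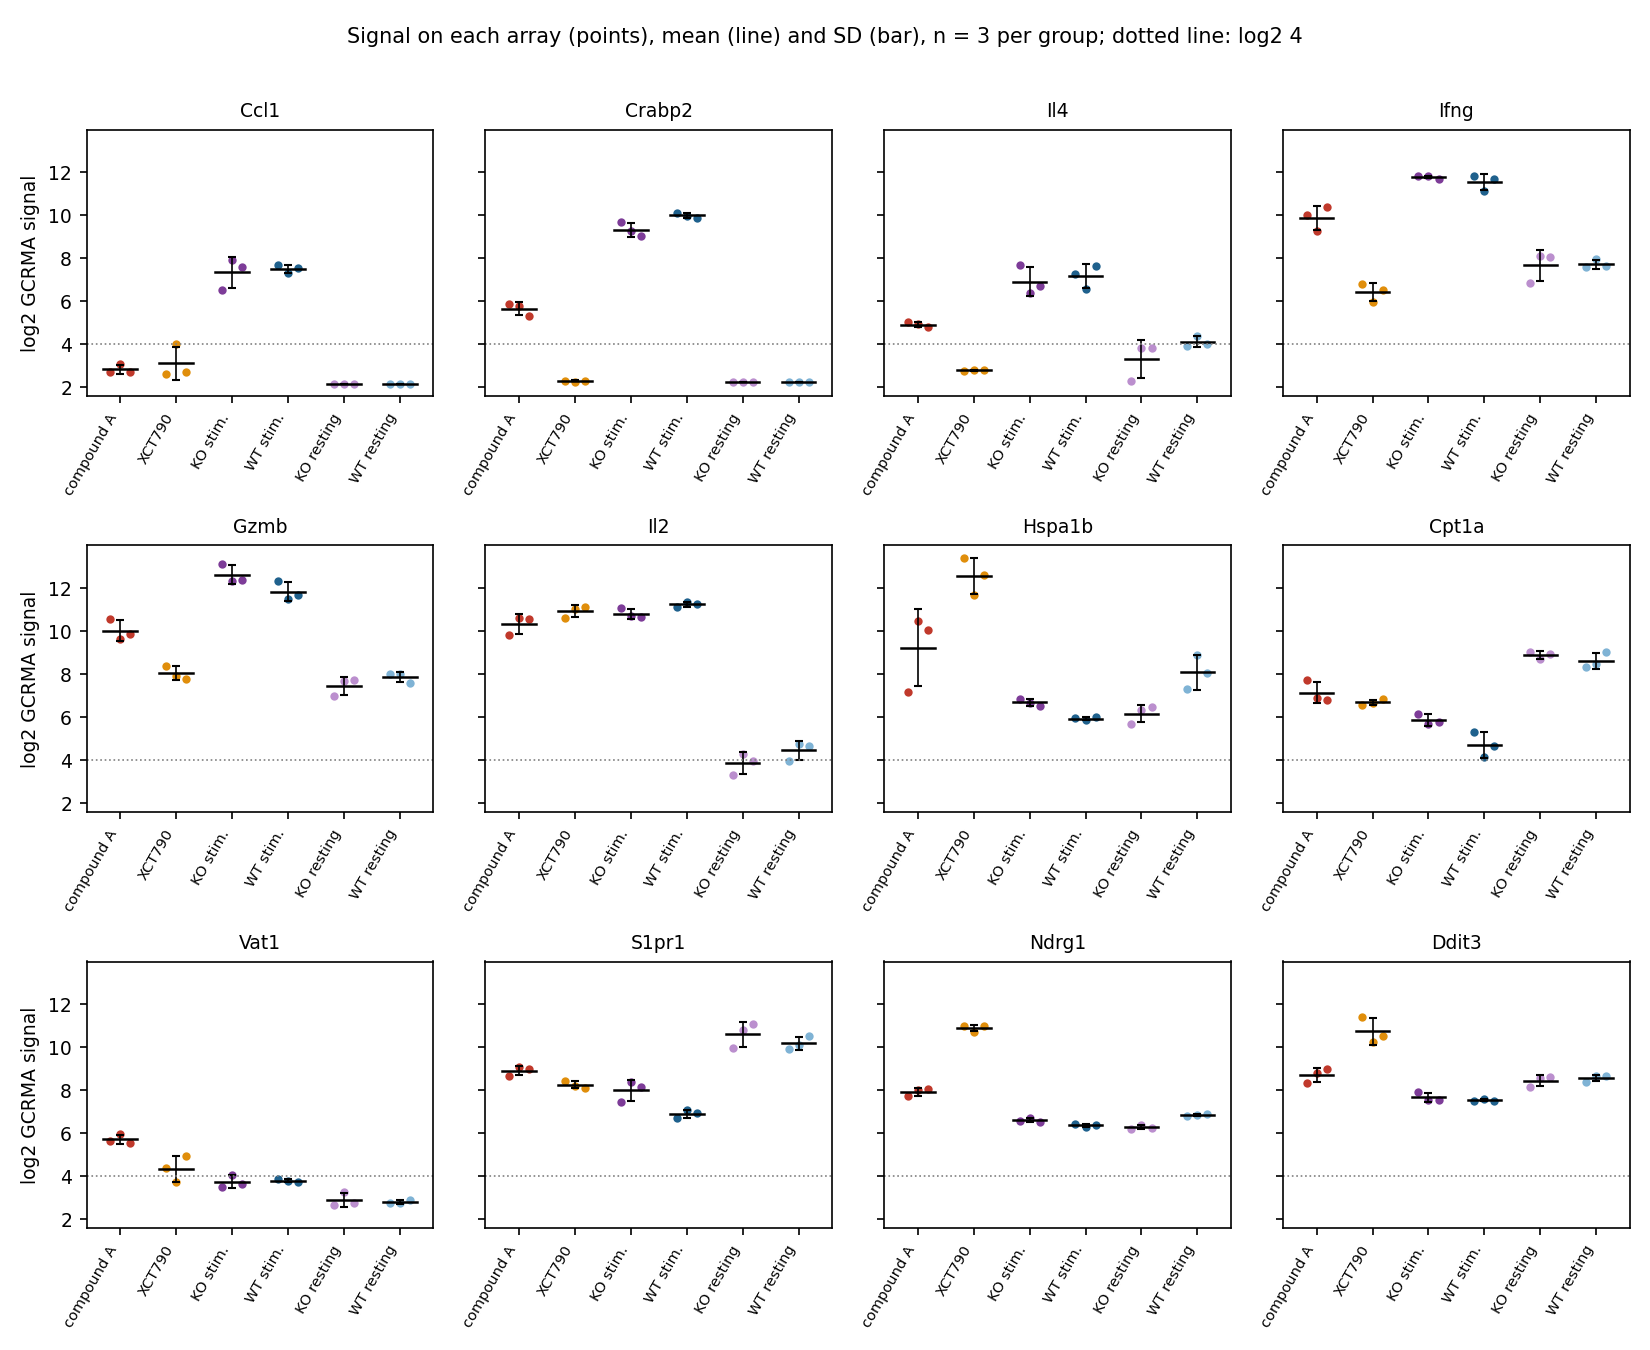
Log2 GCRMA signal (vertical axis) on each of the 18 arrays for 12 genes, with the 6 groups along the horizontal axis, points for arrays, lines for means and bars for the SD (n = 3 per group). Ccl1, Crabp2, Il4, Ifng and Gzmb lie lower with compound A than in stimulated wild-type (WT) and knockout (KO) cells, while Hspa1b, Cpt1a, Vat1, S1pr1, Ndrg1 and Ddit3 lie higher; Hspa1b is spread over 7.18 to 10.47 on the compound A arrays.

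Few surface receptors and transcription factors of activation passed. Of 18 activation receptors, 1 rose and 1 fell (5.56% each, against 14.4% and 18.6% of all genes), with a median of 0.00. Of 27 activation transcription factors, 4 fell (14.8%, against 18.6% of all genes) and none rose, with a median of 0.03. Il2ra, the high-affinity chain of the interleukin 2 receptor, read 10.39, 10.65 and 10.70 with compound A and 10.68, 10.87 and 10.89 without (difference -0.24 ± 0.23, 95% interval -0.73 to 0.25; adjusted p = 0.471), against 7.03 in resting wild-type cells. Pdcd1, the inhibitory receptor PD-1, differed by -1.34 ± 0.51 (95% interval -2.43 to -0.26; adjusted p = 0.0532). Cd200, an inhibitory surface glycoprotein, fell 1.72-fold (adjusted p = 0.00384). Among the transcription factors, Fosl1, an AP-1 subunit, fell 2.98-fold (adjusted p = 0.00259), Nfil3, a basic leucine zipper repressor, 1.85-fold (adjusted p = 0.00912) and Batf, a partner of IRF4 and AP-1, 1.78-fold (adjusted p = 0.0104). Myc, the driver of growth and ribosome production, read 11.82, 11.54 and 11.48 with compound A, against 12.20, 11.99 and 11.99 in stimulated wild-type cells. The groups were apart by a small step (1.37-fold; difference -0.45 ± 0.10; adjusted p = 0.00444), far above the 9.81 of resting wild-type cells.

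Genes of the resting, naive state stood higher. Of 23 quiescence genes, 15 rose (65.2%, against 14.4% of all genes) and 1 fell, with a median of 0.59; 13 to 14 rose when 1 array was left out, and 9 were higher than in stimulated knockout cells. S1pr1, the sphingosine receptor that lets T cells leave lymphoid organs, read 8.68, 9.07 and 8.99 with compound A, against 6.71, 7.07 and 6.92 in stimulated wild-type cells. It was 4.04-fold higher with no overlap (difference 2.01 ± 0.27; adjusted p = 9.19e-05), with stimulated knockout cells at 8.01 and resting wild-type cells at 10.18. Tsc22d3, the glucocorticoid-induced leucine zipper, averaged 9.33 ± 0.28 with compound A and 8.07 ± 0.24 without (2.39-fold higher; adjusted p = 0.000194), and Btg1, an antiproliferative factor of naive T cells, 13.06 ± 0.08 with compound A and 12.54 ± 0.12 without (1.43-fold; adjusted p = 0.000144). Cdkn1b, the cyclin-dependent kinase inhibitor p27, rose 1.81-fold (adjusted p = 7.11e-06), but its other member probe set differed by 0.01, and on the mean of both the call was lost (0.062). For these 4 genes the compound A means lay between those of stimulated and resting wild-type cells.

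Homing receptors were also among the rises. Of 20 integrins and receptors of homing and egress, 7 rose (35%, against 14.4% of all genes) and none fell. Against stimulated knockout cells, 4 were higher and 2 lower. Cxcr4, the receptor for CXCL12, read 8.43, 8.38 and 8.50 with compound A, against 7.40, 7.15 and 6.97 without it (2.4-fold higher; difference 1.26 ± 0.17; adjusted p = 9.26e-05). S1pr4 was 1.91-fold higher (adjusted p = 0.000147). Ccr7, which guides naive T cells to lymph nodes, was 1.64-fold higher (adjusted p = 0.00232), though its difference from stimulated knockout cells did not pass (0.104), and its mean of 13.96 lay above the 12.08 of resting wild-type cells. Among 20 genes of T cell receptor signalling 5 rose and 2 fell (25% and 10%, against 14.4% and 18.6% of all genes). Dgka, a diacylglycerol kinase that dampens the signal, was 1.62-fold higher (adjusted p = 0.000365) and Nfatc3, a calcium-activated transcription factor, 1.38-fold (adjusted p = 0.000958). The count of rises was 3 without compound A array 2 or 3 or stimulated wild-type array 3. The count of falls was 0 without compound A array 3 or stimulated wild-type array 1 and against knockout cells, and 1 without compound A array 2 or stimulated wild-type array 2.

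Most of the measured DNA replication genes fell. Of 38 replication genes 28 fell and none rose (73.7%, against 18.6% of all genes; median -0.72), and 14 were lower than in stimulated knockout cells. The helicase subunits that license origins moved together in direction: Mcm5 read 9.24, 8.54 and 8.39 with compound A, against 10.48, 10.33 and 10.26 without it (3.1-fold lower; difference -1.63 ± 0.31; adjusted p = 0.00114), and Mcm3 read 10.33, 9.44 and 9.59 with compound A, against 11.24, 11.21 and 11.13 without it (2.65-fold; difference -1.41 ± 0.25; adjusted p = 0.000771). On both, compound A array 1 was the highest of its group and still below all stimulated wild-type arrays. Mcm4 fell 1.94-fold and Mcm2 1.92-fold (adjusted p = 0.000102 and 0.000597). Cdc6, which loads these helicases, read 3.36, 3.38 and 3.35 with compound A, against 5.89, 5.86 and 5.88 without it, a fall of at least 3.67-fold (adjusted p = 0.00258). The list count was sensitive to single arrays: 13 and 12 genes fell without compound A array 2 or 3, and 14 and 18 without stimulated wild-type array 1 or 3.

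Mitosis genes showed a wider spread. Of 34 mitosis and spindle genes 3 fell and 2 rose (8.82% and 5.88%, against 18.6% and 14.4% of all genes), although the median of -0.56 was close to that of replication. The mean level of this list lay near the floor, at 4.96 with compound A and 5.51 in stimulated wild-type cells, against 8.65 and 9.46 for replication. With the array number as a block 13 mitosis genes fell, 5 fell without compound A array 1, and 1 without any other single array. Trip13, an ATPase of the spindle checkpoint named for the size of its change, read 6.34, 5.52 and 6.00 with compound A, against 8.33, 8.36 and 8.50 without it (5.43-fold lower; difference -2.44 ± 0.37; adjusted p = 0.000229). Smc2, a condensin subunit, fell 1.87-fold (adjusted p = 0.0106), whereas Smc4, its partner, rose 1.71-fold, with means of 12.67 with compound A and 11.90 without (adjusted p = 5.05e-05). The rise of Smc4 did not pass against stimulated knockout cells (0.0515), and Smc4 stood at 13.39 in resting knockout against 12.72 in resting wild-type cells. Of 18 genes of G1 cyclins, their kinases and inhibitors, 4 rose and 3 fell (22.2% and 16.7%, against 14.4% and 18.6% of all genes).

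Most genes of ribosome production fell by small steps. Of 47 ribosome biogenesis genes 35 fell and none rose (74.5%, against 18.6%; median -0.43); 27 to 30 fell with 1 array left out and 24 were lower than in stimulated knockout cells. Utp20, a component of the small-subunit processome, read 9.99, 10.00 and 9.87 with compound A, against 10.60, 10.64 and 10.58 without it (1.57-fold; difference -0.65 ± 0.07; adjusted p = 1.03e-05). Rrp1b, a nucleolar factor of rRNA processing, read 10.26, 10.22 and 9.93 with compound A, against 10.86, 10.98 and 10.93 without it (1.72-fold; difference -0.79 ± 0.08; adjusted p = 1.38e-05). Both genes were named for their small adjusted p, which favours a spread within a group smaller than the gap between the groups. Their steps were well under 2-fold. Nip7 and Pno1, assembly factors of the large and small ribosomal subunits, fell 1.54-fold and 1.47-fold.

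Ribosomal protein genes were counted by compartment. Of 74 mitochondrial ribosomal proteins 48 fell (64.9%, against 18.6% of all genes) and none rose, with a median of -0.34. Of 42 cytosolic ribosomal proteins 1 fell and 1 rose (2.38% each), with a median close to 0. The difference between these 2 lists was not tested. Mrpl12, a subunit of the mitochondrial large ribosomal subunit, read 11.16, 11.28 and 11.20 with compound A, against 11.87, 11.86 and 11.79 without it (1.54-fold lower; difference -0.63 ± 0.07; adjusted p = 1.41e-05). Mrpl54 fell most among the 4 named, 1.86-fold (8.60, 8.40 and 8.25 with compound A, against 9.28, 9.36 and 9.31 without it; adjusted p = 9.26e-05), and Mrps18a and Mrps35 of the small subunit fell 1.48-fold and 1.58-fold. In stimulated knockout cells these 4 genes averaged 11.62, 9.23, 10.78 and 9.50, against 11.84, 9.32, 10.96 and 9.78 in stimulated wild-type cells. In the list, 30 genes were lower with compound A than in stimulated knockout cells, and 29 fell without compound A array 3.

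Other biosynthetic groups moved less. Of 22 genes of polyamine and nucleotide synthesis 10 fell and 3 rose (45.5% and 13.6%, against 18.6% and 14.4% of all genes), with a median of -0.29. In this list 6 fell without stimulated wild-type array 3, and 5 were lower against knockout cells. Only 1 rose without compound A array 2 or 3 or stimulated wild-type array 1 or 2. Srm, which makes spermidine, read 11.69, 11.58 and 11.53 with compound A, against 12.66, 12.53 and 12.68 without it (2.03-fold lower; difference -1.02 ± 0.15; adjusted p = 0.000194). Cad, the multienzyme that opens pyrimidine synthesis, fell 1.83-fold (adjusted p = 0.000334) and Ppat, the first enzyme of purine synthesis, 1.46-fold (adjusted p = 0.000191). Of 11 genes of serine and one-carbon metabolism 4 fell and 1 rose (36.4% and 9.09%, against 18.6% and 14.4% of all genes). Shmt1, a serine hydroxymethyltransferase of the cytosol, was 2.05-fold lower (adjusted p = 0.00254) on 4 of 4 probe sets. Of 17 aminoacyl-tRNA synthetases 5 fell (29.4%, against 18.6% of all genes). Of 43 proteasome genes 11 fell and 3 rose (25.6% and 6.98%, against 18.6% and 14.4% of all genes). The count of serine and one-carbon genes that fell was 2 in each fit that left out 1 array other than compound A array 1. The synthetase count was 2 without compound A array 1 or stimulated wild-type array 3 and 3 without compound A array 2 or stimulated wild-type array 2. The proteasome count was 7 without compound A array 2 or stimulated wild-type array 1 or 2, and 6 without compound A array 3.

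Nuclear genes of energy metabolism, the best known class of ERRα targets, were mostly within small distances of stimulated wild-type cells. Of 25 genes of the citric acid cycle and pyruvate dehydrogenase 6 fell and none rose (median -0.15); against stimulated knockout cells 0 were lower and 0 higher, with a median of -0.07. Of 33 complex I subunits 8 fell and 1 rose (median -0.12; 3 lower against knockout cells). Of 38 genes of complexes III and IV, cytochrome c and ATP synthase 11 fell and 1 rose (median -0.13; 5 lower against knockout cells). The shares that fell, 24%, 24.2% and 28.9%, stood somewhat above the 18.6% of all genes. The shares that rose, 0%, 3.03% and 2.63%, stood below the 14.4% of all genes. These differences in share were not tested.

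Ndufs3, Cox5b, Dlat and Sdhd were named for their small adjusted p within these lists, so they do not show the typical step. The list medians were -0.12 for complex I, -0.13 for complexes III and IV, cytochrome c and ATP synthase, and -0.15 for the citric acid cycle and pyruvate dehydrogenase. Ndufs3, a core subunit of complex I, read 11.44, 11.39 and 11.48 with compound A, against 11.86, 11.82 and 11.84 without it (1.32-fold lower; difference -0.40 ± 0.05; adjusted p = 9.29e-05). Cox5b, of cytochrome c oxidase, read 13.46, 13.34 and 13.41 with compound A, against 13.89, 13.83 and 13.80 without it (1.36-fold; difference -0.44 ± 0.07; adjusted p = 0.000441). Both lay clear of the stimulated wild-type arrays with a narrow spread, which naming by small adjusted p favours. Dlat, the acetyltransferase of pyruvate dehydrogenase, fell 1.49-fold on 3 of 3 probe sets (adjusted p = 0.000154), but its 8.25 with compound A lay beside 8.34 in stimulated knockout cells, against 8.82 in wild type, and the difference from knockout cells did not pass (0.457). Sdhd, the membrane anchor of succinate dehydrogenase, fell 1.43-fold (adjusted p = 0.00112) and also did not pass against knockout cells (0.0581). Cycs, encoding cytochrome c and a classical ERRα target, read 12.83, 12.77 and 12.65 with compound A, against 12.96, 13.04 and 13.13 without it (difference -0.29 ± 0.10; adjusted p = 0.0359). The groups were apart, but its call was lost without compound A array 2 or 3 (0.0734 and 0.135), without stimulated wild-type array 2 or 3 (0.0787 and 0.126), with no filter (0.0559) and against knockout cells (0.246). Idh3a, a subunit of isocitrate dehydrogenase, differed by -0.20 ± 0.07 (adjusted p = 0.0306) and lost its call in the same 4 single-array fits (0.0804 to 0.113), on the mean of its probe sets (0.0636) and against knockout cells (0.512).

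Fatty acid oxidation genes gave calls in both directions. Of 20 genes 4 rose and 2 fell (20% and 10%, against 14.4% and 18.6% of all genes; median 0.07; 4 higher and 1 lower against stimulated knockout cells), and in each fit that left out 1 array 4 rose and 1 fell. Cpt1a, the carnitine palmitoyltransferase that admits long-chain fatty acids to mitochondria, read 7.73, 6.89 and 6.82 with compound A, against 5.33, 4.15 and 4.68 in stimulated wild-type cells. All compound A arrays were higher, by 5.37-fold on average (difference 2.43 ± 0.29; adjusted p = 3.32e-05), on 1 of 2 member probe sets; the other differed by 0.49 and did not pass. Cpt1a averaged 6.69 with XCT790, 5.87 in stimulated knockout cells and 8.62 in resting wild-type cells, so compound A lay between the stimulated and the resting levels, and its difference from knockout cells was 1.28 ± 0.29 (adjusted p = 0.00602). Acadl and Acadvl, the dehydrogenases for long and very long chains, were 1.8-fold and 1.49-fold higher (adjusted p = 0.000339 and 0.00136). Acadm, the medium-chain dehydrogenase and an ERRα target, differed by -0.20 ± 0.13 (95% interval -0.47 to 0.07; adjusted p = 0.246), and passed with array weights (0.0119) and in the fit of the compared groups alone (0.014). Eci1, an isomerase for unsaturated chains, fell 1.69-fold (adjusted p = 0.00144).

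Some glycolysis genes fell. Of 18 genes 5 fell (27.8%, against 18.6% of all genes) and none rose, with a median of -0.28. The count that fell was 3 without compound A array 1, 2 or 3 or stimulated wild-type array 1 or 3, and 3 were lower against knockout cells. Pfkl, the liver-type phosphofructokinase, read 8.79, 8.96 and 8.96 with compound A, against 9.96, 9.56 and 9.81 without it (1.83-fold lower; difference -0.87 ± 0.12; adjusted p = 0.000106). Pgam1, phosphoglycerate mutase, fell 1.48-fold and Ldha, the lactate dehydrogenase subunit, 1.32-fold (adjusted p = 0.000884 and 0.0034). Slc2a1, the glucose transporter GLUT1 that activated T cells bring to the surface, read 9.59 on each compound A array, against 10.22, 9.94 and 10.15 without it (difference -0.51 ± 0.16; adjusted p = 0.0237). That call was lost in 5 of the 6 fits without 1 array (all but the fit without stimulated wild-type array 2; adjusted p up to 0.0837), with no filter (0.0533) and against knockout cells (0.23). Txnip, which limits glucose uptake, differed by 0.19 ± 0.11 (95% interval -0.06 to 0.43; adjusted p = 0.226); on the mean of its probe sets it differed by 0.72 and passed (adjusted p = 0.00398).

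The ERR response element was looked for in the 250 bases before the transcription start, on both strands, as TNAAGGTCA. It was found before 44 of the 5666 tested genes whose promoters were read (0.777%). It stood before 5 of 835 genes higher with compound A (0.599%) and 7 of 1056 genes lower with it (0.663%). Both shares lie near that of all genes. The other elements searched were TGATGNAA for ATF4 (2.31% of all, 2.16% of higher and 1.99% of lower genes), the E-box CACGTG (10.9%, 10.9% and 11.6%), the antioxidant element TGACNNNGC (13.8%, 13.8% and 14.2%) and the sterol element TCACNCCAC (1.16%, 1.32% and 0.947%). A match in letters is a description and no evidence of binding, and sites outside this window were not searched. Of the 12 genes with an ERR element that passed, 6 are shown for the biology they stand for: Nhp2 of ribosome-modifying particles, Rrn3 of RNA polymerase I initiation, Timm8b of mitochondrial import and Hmgcs1 of cholesterol synthesis, which fell, and Tnrc6a and Tnrc6b of microRNA silencing, which rose. They were chosen after their values were seen. Sequences are RefSeq promoters of GRCm38.p6, 5′ to 3′ on the gene's strand, with the element, or its reverse complement, in capitals.
Nhp2, plus strand, chr11:51619619-51619657: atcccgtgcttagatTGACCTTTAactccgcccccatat
Rrn3, plus strand, chr16:13780582-13780620: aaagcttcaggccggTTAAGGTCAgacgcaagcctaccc
Timm8b, plus strand, chr9:50603790-50603828: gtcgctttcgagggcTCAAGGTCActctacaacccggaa
Hmgcs1, plus strand, chr13:119690101-119690139: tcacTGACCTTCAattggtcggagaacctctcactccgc
Tnrc6a, plus strand, chr7:123123715-123123753: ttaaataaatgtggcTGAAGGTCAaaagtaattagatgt
Tnrc6b, plus strand, chr15:80798550-80798588: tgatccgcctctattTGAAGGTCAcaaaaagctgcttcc
Nhp2 averaged 12.47 with compound A and 13.20 without (difference -0.73 ± 0.12; adjusted p = 3.63e-04). Rrn3 averaged 8.63 with compound A and 9.21 without (difference -0.58 ± 0.06; adjusted p = 1.49e-05), and Timm8b 10.44 with compound A and 10.76 without (difference -0.32 ± 0.07; adjusted p = 0.00318). Hmgcs1 averaged 10.90 with compound A and 11.34 without (difference -0.44 ± 0.13; adjusted p = 0.0209). Tnrc6b averaged 8.70 with compound A and 7.70 without (difference 1.00 ± 0.10; adjusted p = 9.16e-06), and Tnrc6a 11.74 with compound A and 11.13 without (difference 0.61 ± 0.09; adjusted p = 1.6e-04). The same element thus stood before genes that fell and genes that rose.

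Genes of cholesterol synthesis were also among those that fell. Of 21 genes of cholesterol synthesis and uptake 11 fell and 2 rose (52.4% and 9.52%, against 18.6% and 14.4% of all genes), with a median of -0.36. In this list 7 fell without compound A array 3 or stimulated wild-type array 1, and 5 were lower than in knockout cells. Lss, lanosterol synthase, read 6.95, 6.97 and 6.74 with compound A, against 8.02, 8.02 and 7.94 without it (2.15-fold lower; difference -1.10 ± 0.17; adjusted p = 0.000235), on 1 of 2 member probe sets. Sqle, the squalene epoxidase before it in the pathway, fell 1.61-fold, Idi1, the isopentenyl isomerase, 1.76-fold and Nsdhl, a later demethylating enzyme, 1.55-fold (adjusted p = 0.000981, 0.00167 and 0.000515). Of 16 genes of liver X receptor targets and fatty acid synthesis 7 fell and 3 rose (43.75% and 18.75%, against 18.6% and 14.4% of all genes). Fasn, fatty acid synthase, was 1.55-fold lower (adjusted p = 0.000786), while Smpdl3a, a phosphodiesterase, was 2.87-fold higher (adjusted p = 0.000933) and Acss2, an acetyl-CoA synthetase, 1.61-fold (adjusted p = 0.00182). The number that fell was 4 without compound A array 2 or stimulated wild-type array 2 and 3 without stimulated wild-type array 3.

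In the stress pathways single genes moved by more than the lists they belong to. The inducible Hsp70 gene Hspa1b read 7.18, 10.47 and 10.08 with compound A, against 5.95, 5.85 and 6.02 in stimulated wild-type cells (9.84-fold higher; difference 3.30 ± 0.67; adjusted p = 0.00182). Compound A array 1 stood about 3 log2 units under the other 2, yet above all stimulated wild-type arrays. Hspa1a, a near-identical copy whose signal may not be separate, read 3.13, 7.16 and 6.90 with compound A, against 2.41, 2.41 and 2.47 without it, a rise of at least 4.05-fold that rested on compound A arrays 2 and 3 and did not pass with the compared groups alone (0.0605). Of 17 cytosolic heat shock genes 3 rose, both of these included, and 1 fell (17.65% and 5.88%, against 14.4% and 18.6% of all genes), with a median of -0.01. Hspa5, the endoplasmic reticulum chaperone BiP, differed by -0.14 ± 0.09 (95% interval -0.33 to 0.05; adjusted p = 0.259), and passed with array weights (0.0218) and in the fit of the compared groups alone (0.0484). Of 28 genes of the unfolded protein response 4 rose and 4 fell (14.3% each, against 14.4% and 18.6% of all genes). With the array number as a block 2 rose and 5 fell, and 2 rose in each fit that left out 1 array.

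Among 22 genes of ATF4 and the integrated stress response, which adjusts translation and amino acid supply, 5 rose and 2 fell (22.7% and 9.09%, against 14.4% and 18.6% of all genes). The median was 0.17, and 3 rose without compound A array 2 or 3. Ddit3, the stress factor CHOP, read 8.34, 8.80 and 8.98 with compound A, against 7.50, 7.61 and 7.51 without it (2.24-fold higher; difference 1.16 ± 0.24; adjusted p = 0.00222). Slc3a2, the shared chain of amino acid transporters, was 1.58-fold higher (adjusted p = 0.00169), whereas Atf3 was 2.44-fold lower (adjusted p = 0.00648). Of 15 hypoxia-inducible factor targets 2 rose and 4 fell (13.3% and 26.7%, against 14.4% and 18.6% of all genes), and 2 fell without stimulated wild-type array 1. Ndrg1, a differentiation-related gene, was 2.95-fold higher on 7.71, 8.00 and 8.08 with compound A, against 6.43, 6.31 and 6.37 without it (adjusted p = 1.27e-07; 5 of 5 probe sets), and Egln3, a prolyl hydroxylase, 3.64-fold lower on 5.60, 5.67 and 5.68 with compound A, against 7.52, 7.57 and 7.45 without it (adjusted p = 2.20e-06). These 2 targets moved in opposite directions. Of 20 p53 targets 4 rose and 6 fell (20% and 30%, against 14.4% and 18.6% of all genes). Trp53inp1 was 1.75-fold higher (adjusted p = 6.19e-06), Aen, an exonuclease of apoptosis, 1.99-fold lower (adjusted p = 3.32e-05) and Phlda3, an inhibitor of Akt, 4.72-fold lower (adjusted p = 0.000384). Of the p53 targets, 3 fell without compound A array 3 or stimulated wild-type array 3. The NRF2 list, of antioxidant genes, had 3 of 17 higher and 3 lower (17.65% each, against 14.4% and 18.6% of all genes). It had 0 higher without compound A array 2 or 3 or stimulated wild-type array 3, and 1 higher without stimulated wild-type array 2. It had 1 lower in each fit without 1 array other than compound A array 1.

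Some interferon-linked genes of antigen processing rose by small steps, while interferon gamma itself fell. Of 19 interferon gamma-induced GTPases and antigen processing genes 8 rose (42.1%, against 14.4% of all genes) and none fell, with a median of 0.25. Against knockout cells 3 were higher and 1 lower. Irf1, a transcription factor, read 12.72, 12.86 and 12.90 with compound A, against 12.39, 12.29 and 12.22 without it (1.44-fold; difference 0.53 ± 0.14; adjusted p = 0.00862), and Irgm2, a GTPase, was 1.46-fold higher (adjusted p = 0.00479). Of 22 type I interferon-stimulated genes 1 rose (4.55%), Irf9, and none fell, with a median of -0.09. Against stimulated knockout cells 8 were lower and none higher (median difference -1.26). In this list stimulated knockout cells themselves stood above stimulated wild-type cells, by a median of 1.03. Irf9 did not pass against knockout cells (adjusted p = 0.116). Pim1, a survival kinase downstream of cytokine receptors, was 1.67-fold higher on 12.87, 13.06 and 13.08 with compound A, against 12.24, 12.23 and 12.33 without it (adjusted p = 3.32e-05). Bcl2l1, which encodes the survival factor Bcl-xL, was 1.66-fold lower (adjusted p = 0.0051), but did not pass against knockout cells (0.343). Of 40 lysosome and autophagy genes 11 rose and 4 fell (27.5% and 10%, against 14.4% and 18.6% of all genes). Among them were the protease Ctsl (1.63-fold higher, adjusted p = 0.00192) and the glucuronidase Gusb (2.16-fold lower, adjusted p = 0.000588). In this list 7 rose without compound A array 2 or 3 or stimulated wild-type array 3, and 6 without stimulated wild-type array 1. Of 11 iron genes none passed.

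**Figure D3:**
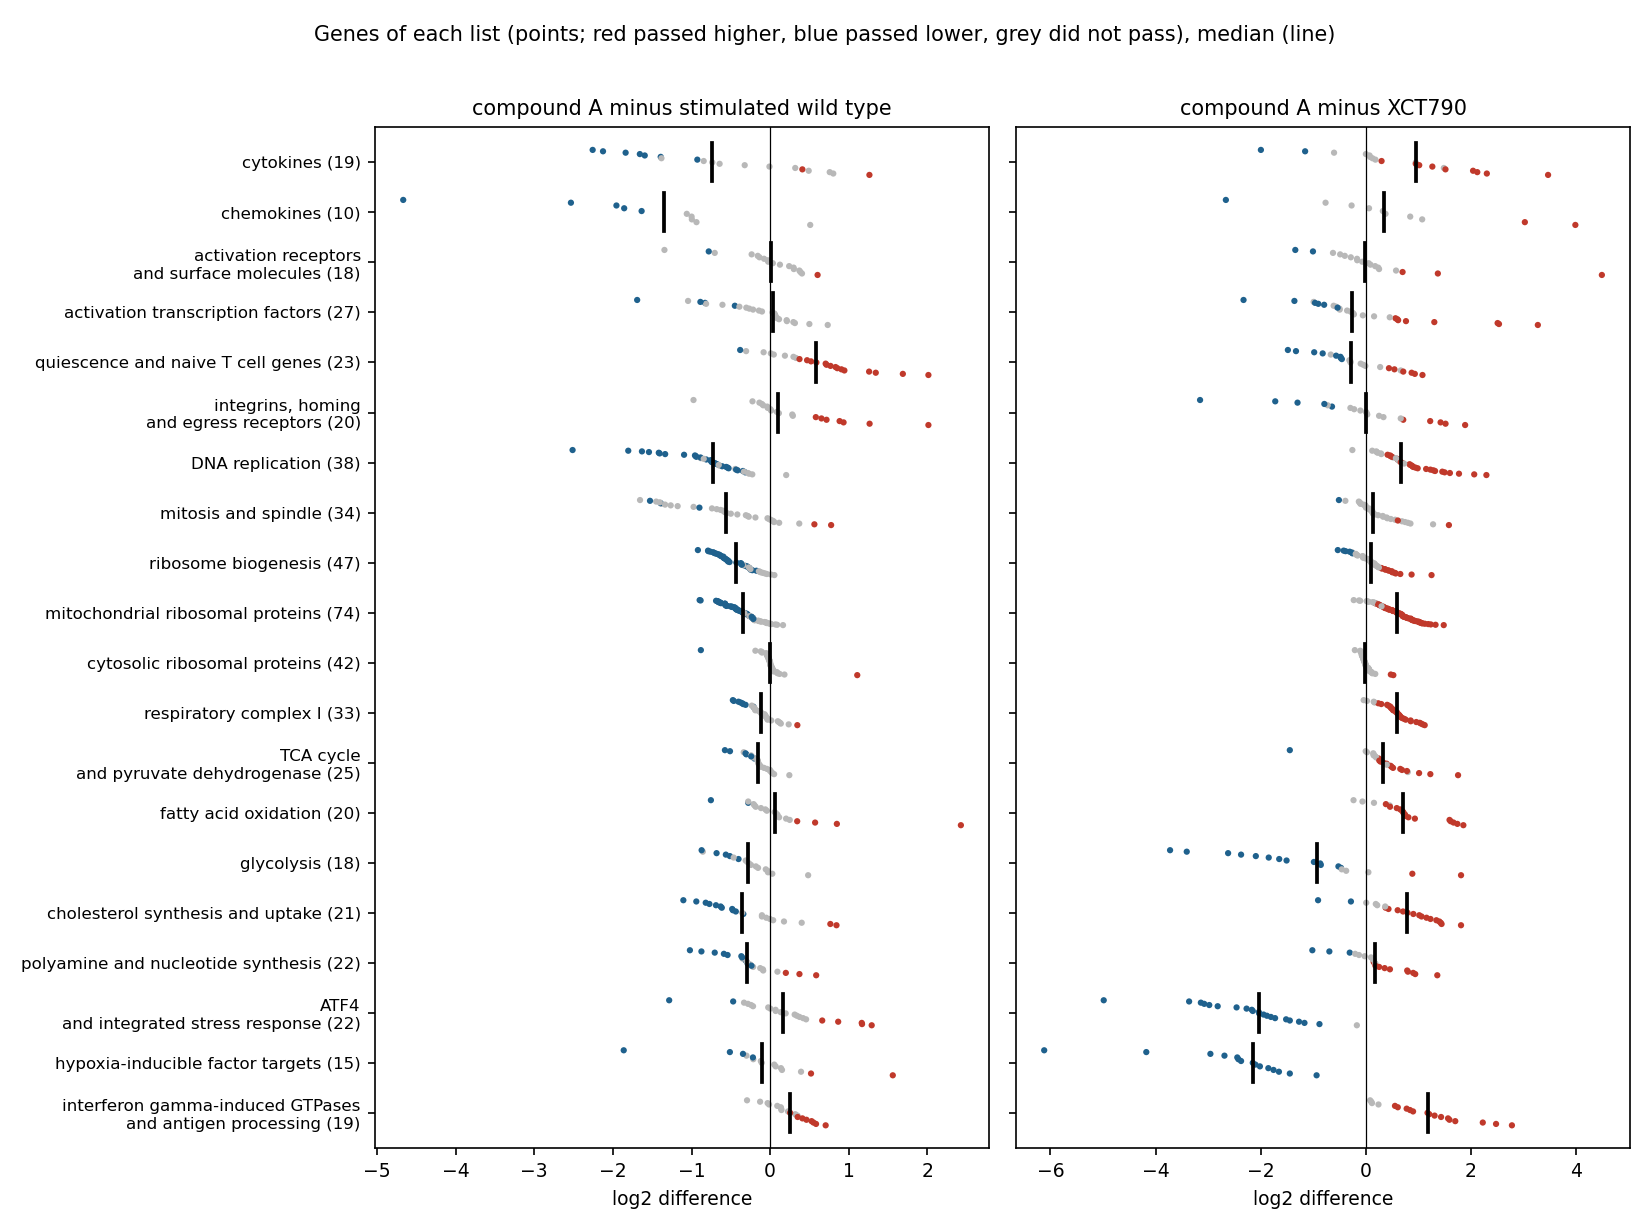
Log2 difference (horizontal axis) of the genes in 20 lists for compound A minus stimulated wild type (left) and compound A minus XCT790 (right), with the number of genes in brackets, points for genes and a line at each list's median. On the left, cytokines, chemokines, DNA replication and ribosome biogenesis have medians under 0 and quiescence genes a median above it; on the right, the integrated stress response and hypoxia-inducible factor targets have medians of -2.03 and -2.15.

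Several of the largest rises were of transcripts whose levels follow the dap split. Malat1, a nuclear long noncoding RNA, read 14.05, 14.22 and 13.66 with compound A, against 10.39, 10.30 and 10.10 in stimulated wild-type cells (13.1-fold; difference 3.72 ± 0.21; adjusted p = 7.53e-08). It averaged 14.22 with XCT790 and 13.10 and 14.03 in stimulated and resting knockout cells, with 11.73 in resting wild-type cells. Atrx, a chromatin remodeller, averaged 9.73 with compound A and 6.67 without (8.31-fold; adjusted p = 1.23e-06), but 9.40 and 9.95 in stimulated and resting knockout cells, against 6.20 in resting wild-type cells. The same order held for the histone demethylase gene Kdm5a (6.95-fold), the repressor Zbtb7a (8.64-fold), the ciliary gene Cfap97 (6.08-fold) and the centrosomal gene Cntrl (at least 10.3-fold): the compound A, XCT790 and both knockout groups were high and both untreated wild-type groups low. Against stimulated knockout cells, Malat1 still differed by 0.88 ± 0.21 (adjusted p = 0.00858), whereas Atrx, Kdm5a, Zbtb7a, Cfap97 and Cntrl did not pass (adjusted p = 0.369, 0.0875, 0.238, 0.564 and 0.661). Npas2, a partner of the circadian clock, was high in stimulated wild-type cells alone: 2.34, 2.30 and 2.54 with compound A, against 5.48, 6.21 and 5.71 in stimulated wild-type cells (at least 3.49-fold lower), with 2.28 with XCT790, 2.88 in stimulated knockout and 2.24 in resting wild-type cells. The part of the dap split in these differences was not tested.

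**Figure D4:**
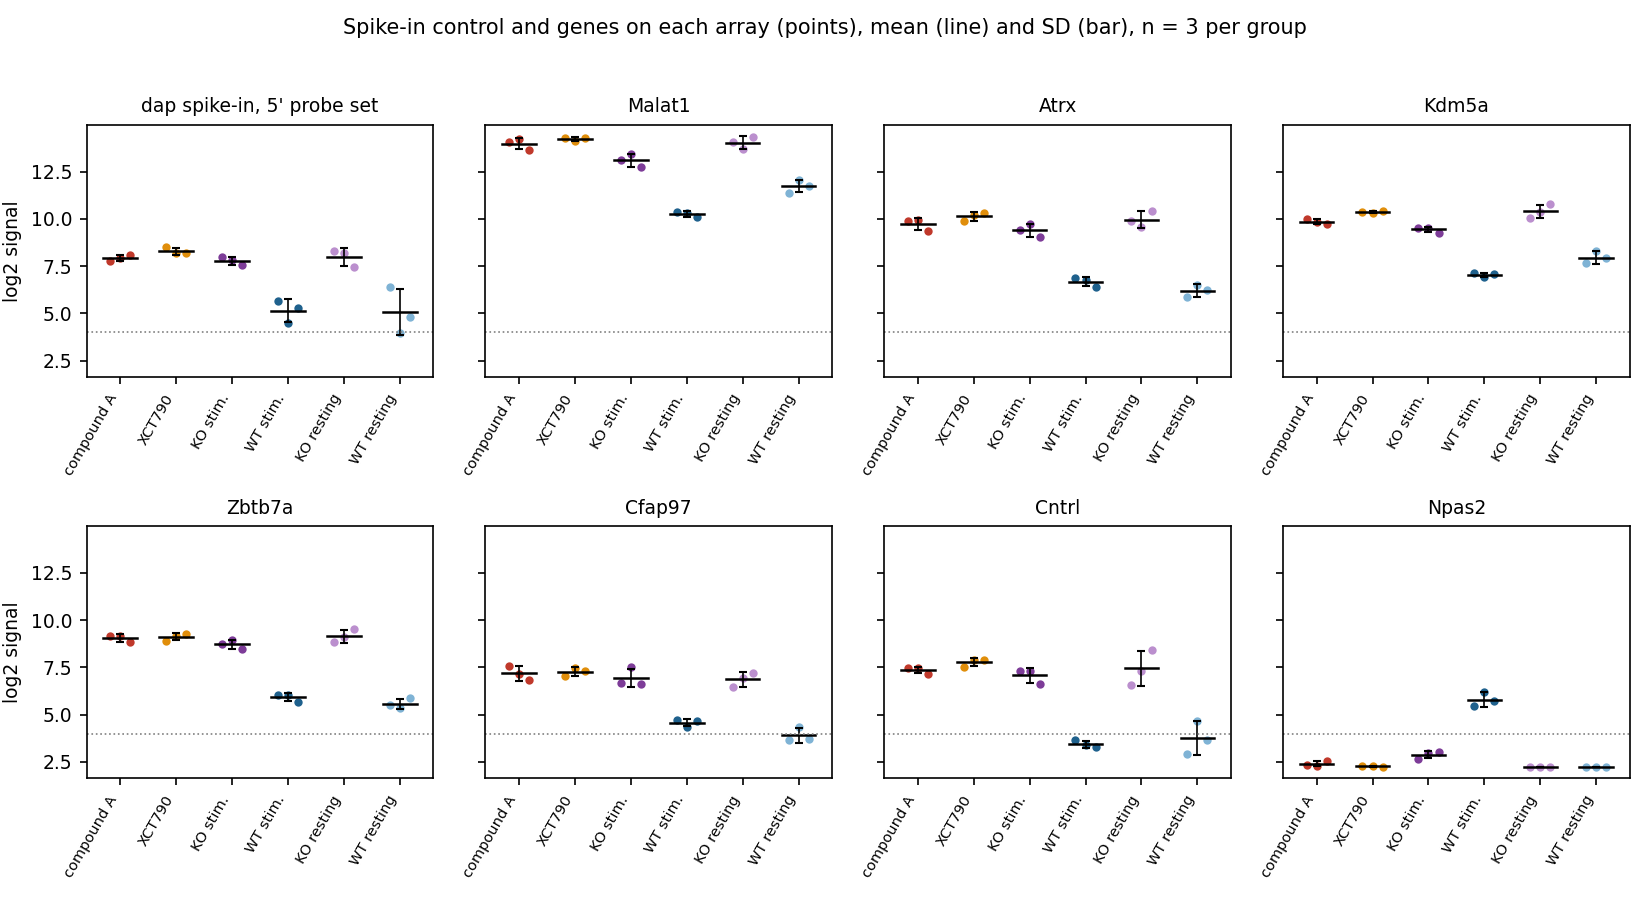
Log2 signal (vertical axis) on each of the 18 arrays for the 5′ probe set of the dap spike-in and 7 genes, with the 6 groups along the horizontal axis, points for arrays, lines for means and bars for the SD (n = 3 per group). The dap control, Malat1, Atrx, Kdm5a, Zbtb7a, Cfap97 and Cntrl are high with compound A, XCT790 and in both knockout (KO) groups and lower in both untreated wild-type (WT) groups; Npas2 is above log2 4 in stimulated wild-type cells alone.

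Other large changes did not follow that order. Crabp2, which carries retinoic acid to its receptor, read 5.90, 5.79 and 5.30 with compound A, against 10.10, 9.98 and 9.88 without it, and was 20.02-fold lower (difference -4.32 ± 0.15; adjusted p = 3.90e-10). Stimulated knockout cells kept it at 9.32, while XCT790 and resting wild-type cells were under the floor at 2.30 and 2.26. Tacc2, a centrosomal coiled-coil protein, read 6.78, 5.22 and 5.22 with compound A, against 8.54, 8.74 and 8.40 without it (7.06-fold lower; adjusted p = 0.000113), with compound A array 1 nearer the stimulated wild-type arrays than the other 2. Ak4, a mitochondrial adenylate kinase, read 4.29, 4.48 and 4.06 with compound A, against 7.38, 6.38 and 7.04 without it (6.29-fold lower; adjusted p = 5.04e-06). It stood at 6.32 in stimulated knockout and 3.50 in resting wild-type cells. Dglucy, the mitochondrial D-glutamate cyclase, was 5.33-fold lower (adjusted p = 1.74e-05), Ubd, a ubiquitin-like modifier, at least 3.97-fold lower (adjusted p = 0.000651) and Nlgn2, a neuroligin, at least 3.61-fold lower (adjusted p = 2.73e-06). Among rises, the linker histone gene H1f2 was 5.49-fold higher (adjusted p = 0.000102) on 8.17, 9.23 and 9.51 with compound A, against 5.83, 6.49 and 7.22 without it, with 9.76 in resting wild-type cells. Vat1, a vesicle membrane protein, read 5.66, 5.95 and 5.55 with compound A, against 3.87, 3.80 and 3.75 without it, at least 3.29-fold higher (adjusted p = 5.48e-05), and stood at 4.36 with XCT790 and under the floor in stimulated knockout cells (3.75). Ifnz, a member of the type I interferon family with near-identical copies, was at least 3.46-fold higher (adjusted p = 0.000627). Fbxo32, the ubiquitin ligase subunit atrogin-1, was at least 2.65-fold higher (adjusted p = 0.0165), a call lost without compound A array 1 or 2 (0.0658 and 0.0512) and against knockout cells (0.14).

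Compound A and XCT790 were compared at the same dose of 20 µM and the same time of 12 h, on arrays that share the side of the dap split; this is the 1 pair of compounds in the series. Of 6873 genes, 1899 (27.6%) were higher with compound A than with XCT790 and 1686 (24.5%) lower, 453 and 311 of them by at least 2-fold. Equally numbered arrays of these groups had low correlations (0.11, 0.01 and 0.18). In 22 integrated stress response genes 21 were lower with compound A and none higher (median -2.03), in 15 hypoxia-inducible factor targets 15 were lower (median -2.15), and in 18 glycolysis genes 13 were lower and 2 higher (median -0.93). Higher with compound A than with XCT790 were 59 of 74 mitochondrial ribosomal proteins, 38 of 43 proteasome genes, 34 of 38 genes of complexes III and IV, cytochrome c and ATP synthase, 29 of 33 complex I subunits, 26 of 38 replication genes and 16 of 20 fatty acid oxidation genes. Quiescence genes had 6 higher and 8 lower of 23 (median -0.29), and cytosolic ribosomal proteins 2 higher and 0 lower of 42 (median -0.02).

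Type 1 helper genes and hypoxia-linked genes were among the largest differences between the inhibitors. Ifng read 10.00, 9.29 and 10.39 with compound A and 6.80, 5.97 and 6.51 with XCT790 (11-fold higher with compound A; difference 3.46 ± 0.34; adjusted p = 1.64e-06). Tbx21, the transcription factor T-bet of type 1 cells, read 10.65, 10.62 and 11.07 with compound A and 7.03, 7.81 and 7.68 with XCT790 (9.65-fold; difference 3.27 ± 0.21; adjusted p = 3.33e-08). Against stimulated wild-type cells Tbx21 differed by -0.26 ± 0.21 with compound A (95% interval -0.71 to 0.18; adjusted p = 0.36). Zbp1, a nucleic acid sensor, was 11.3-fold, Il12rb1, a chain of the interleukin 12 receptor, 10.9-fold and the chemokine Ccl22 8.13-fold higher with compound A than with XCT790 (adjusted p = 6.55e-08, 8.86e-06 and 4.42e-05).

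In the other direction, Ak4 read 4.29, 4.48 and 4.06 with compound A and 8.83, 9.51 and 9.61 with XCT790 (32.9-fold lower with compound A; difference -5.04 ± 0.25; adjusted p = 2.87e-09), with stimulated wild-type cells between them. Bnip3, a mitophagy receptor induced by hypoxia, read 7.61, 8.08 and 8.17 with compound A and 11.97, 12.18 and 12.24 with XCT790 (18.1-fold; difference -4.18 ± 0.30; adjusted p = 1.03e-07). Slc2a3, the glucose transporter GLUT3, was 10.6-fold, Arrb1, the adaptor beta-arrestin 1, 10.4-fold and Hspa1b 10.02-fold lower with compound A (adjusted p = 2.99e-11, 2.25e-07 and 0.000834). Against stimulated wild-type cells, Bnip3, Slc2a3 and Arrb1 differed by -0.21 ± 0.30, 0.03 ± 0.11 and 0.19 ± 0.26 with compound A and none passed, with 95% intervals of -0.86 to 0.43, -0.21 to 0.26 and -0.37 to 0.75. Some genes lay on the same side of stimulated wild-type cells with both inhibitors: S1pr1 averaged 8.91 with compound A and 8.25 with XCT790, against 6.90 in stimulated wild-type cells. Ccl1 averaged 2.84 with compound A and 3.12 with XCT790, against 7.51 in stimulated wild-type cells. Utp20 averaged 9.95 with compound A and 10.34 with XCT790, against 10.61 in stimulated wild-type cells. These comparisons share the stimulated wild-type arrays, so nothing further is drawn from them.

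**Figure D5:**
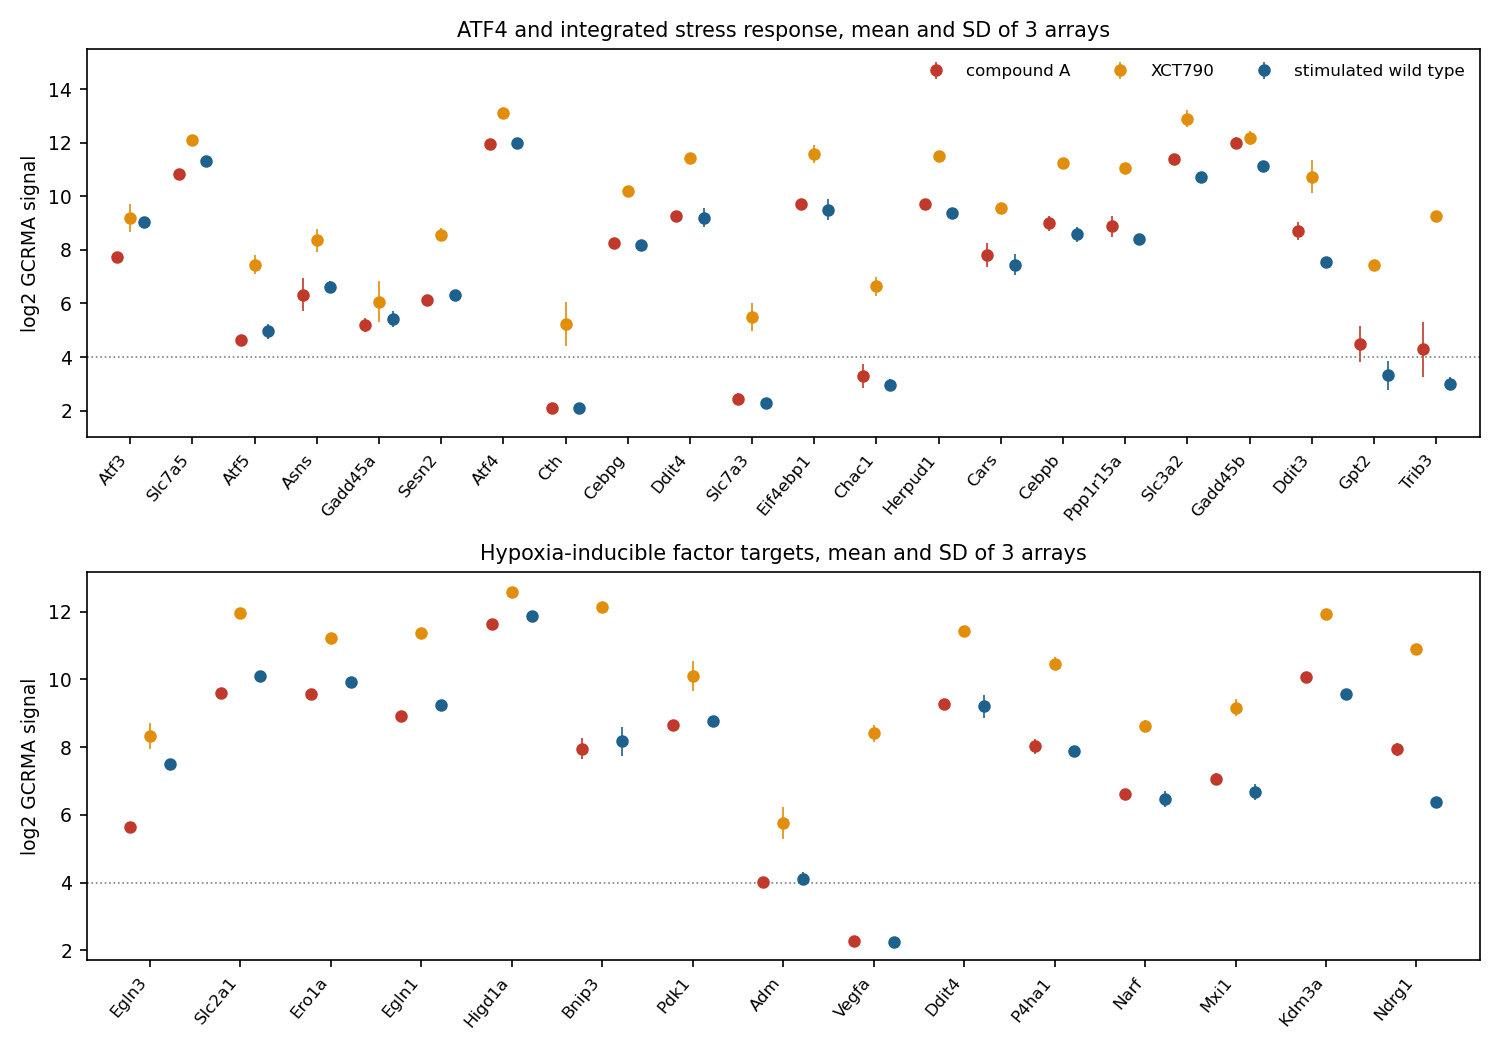
Mean log2 GCRMA signal with the SD (n = 3 arrays) of integrated stress response genes (top) and hypoxia-inducible factor targets (bottom) with compound A (red), XCT790 (orange) and in stimulated wild-type cells (blue); genes run along the horizontal axis by their difference between compound A and stimulated wild type. In most genes the compound A and stimulated wild-type points lie close together with XCT790 above both; Ndrg1, Egln3, Ddit3 and Atf3 are among those where compound A and stimulated wild type part.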

How the data were processed

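The deposited values are log2 signals of the Affymetrix Mouse Genome 430A 2.0 array, computed by the authors with GCRMA per the submitters' processing notes; the version is not given in the sources used here. All 18 arrays hold the same sorted values, with a median of 3.55. The number of arrays limits the precision. Of 22690 probe sets, 64 are controls, 1555 have no gene and 691 several in the platform annotation, and 20380 have 1.

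One mean per group was fitted over all 18 arrays with limma 3.58.1 in R 4.3.3, and p-values were adjusted by Benjamini-Hochberg over 10691 probe sets with a log2 signal of at least 4 on 3 or more arrays. The fit was tested on simulated data. Equally numbered compound A and stimulated wild-type arrays deviated together (correlations 0.43, 0.35 and 0.25, against -0.34 to 0.13 for unequal numbers). The labels call the arrays independent replicates, so whether the numbers pair these samples is not known, and the main fit did not use them. The fit with the array number as a block is given where it moved a count of calls by more than 1.5 times and more than 1 gene. Alternatives changed the filter, scaling, probe sets of a gene, prior variance, array weights, threshold, reference and arrays used. Figures were drawn with matplotlib 3.10.9 in Python 3.11.15.

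The genes, lists and tests were chosen with earlier results of these data known. Named genes are Esrra, the largest changes without overlap (8 each way well above log2 4, 5 each way against the floor), up to 4 genes of smallest adjusted p in a list, 12 key genes of activation and metabolism, and the 5 largest differences each way between the inhibitors.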

Additional observations from a re-analysis of the deposited data

Results flagged for a closer look

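The 5′ probe set of the dap spike-in, a control outside the genes compared, was 2.79 log2 units higher on the compound A arrays (7.77, 7.94 and 8.10) than on the stimulated wild-type arrays (5.68, 4.49 and 5.28), with no overlap. The middle and 3′ probe sets of the same RNA differed by less: the middle one read 9.82, 10.14 and 10.12 with compound A, against 9.64, 9.27 and 9.57 without it. Its part in the differences between these groups was not tested.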

How the results depend on the processing

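Of 165 named genes that passed between compound A and stimulated wild-type cells, 106 passed in the same direction under every alternative fit that tested them. The other 59 lost the call under at least 1. The stricter thresholds, an adjusted p under 0.01 and a change of at least 2-fold, were not applied to the named genes. With a filter of log2 of at least 6 on 3 or more arrays, 156 of the 165 were tested. Between compound A and stimulated wild-type cells, 2271 genes passed (990 higher, 1281 lower). Array weights gave 4010 (1808 higher, 2202 lower), an adjusted p under 0.01 gave 1312 (588 and 724), and a change of at least 2-fold gave 258 (97 and 161). With stimulated knockout arrays as the reference, an alternative chosen after seeing the data, 791 were lower. The counts were 2002 with no filter, 2979 with the compared groups alone and 3158 with arrays 2 and 3 alone. Leaving out 1 array gave 1591 to 2125 genes, with 692 to 970 higher and 899 to 1155 lower. Between compound A and XCT790, 764 of 3585 genes passed at 2-fold (453 and 311), and leaving out 1 array gave 3137 to 3555.

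With the array number as a replicate block, 2426 genes passed against stimulated wild-type cells, and no call of a named gene changed. The block gave 3711 genes against XCT790, where equally numbered arrays had correlations of 0.11, 0.01 and 0.18. The Esrra difference of -0.26 passed with the compared groups alone (-0.26, adjusted p = 0.016) and with array weights (-0.29, adjusted p = 0.0185), and was 0.66 against stimulated knockout arrays, whose bearing on the genotype is not known.

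Differences that changed sign against stimulated knockout arrays were those of Il18r1 (-0.107), Polrmt (0.036), Mthfd2 (-0.023), Cdkn2d (-0.071) and Socs2 (-0.081). Among differences that did not pass, Bnip3 was 0.022 with array weights and 0.162 with arrays 2 and 3 alone. Slc2a3 was -0.102 on the mean of its probe sets and ranged over -0.041 to 0.153 with 1 array left out, negative without compound A array 2 or stimulated wild-type array 2 or 3. Arrb1 ranged over -0.056 to 0.387, negative without stimulated wild-type array 2. The cause was not tested in any of these.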

Other observations

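Genes higher and lower with compound A had different median gene lengths, a measure not used in choosing them and not tested here. The median length in the RefSeq annotation was 32.2 kb for the 990 genes higher with compound A and 15.8 kb for the 1281 lower genes, against 21.4 kb for 6867 genes tested that have a length. Against stimulated knockout cells, which lie on the same side of the dap split, it was 32.2 kb for higher and 14.1 kb for lower genes. Against XCT790 the order was the other way: 15.8 kb for genes higher with compound A and 29.2 kb for genes lower with it.

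Of 19 genes of the SOCS, Pim and STAT families 4 rose and 1 fell with compound A (21.1% and 5.26%, against 14.4% and 18.6% of all genes), and against stimulated knockout cells 1 was higher and 1 lower. Stat3, which carries signals of the interleukin 6 family, read 11.46, 11.48 and 11.72 with compound A, against 10.99, 10.97 and 10.88 in stimulated wild-type cells (adjusted p = 0.00337), and did not pass against stimulated knockout cells (adjusted p = 0.687). Of 11 MAP kinase phosphatase and Sprouty genes 1 rose (9.09%). Of 11 BCL2 family genes 1 rose and 2 fell (9.09% and 18.2%), and of 10 metallothionein and zinc transport genes 2 fell (20%). Abcb1b, a drug efflux pump, averaged 6.73 ± 0.37 with compound A and 8.06 ± 0.16 in stimulated wild-type cells (SD, n = 3 arrays each; limma adjusted p = 0.00114).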
